A study of Mus musculus with 7 samples.

Results

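The dual-specificity phosphatase genes described here are Dusp1, Dusp2, Dusp4, Dusp5, Dusp6, Dusp7, Dusp8, Dusp10, Dusp14 and Dusp16. They were found by symbol, from probe sets annotated with exactly 1 gene, and all 10 were present among 22180 genes measured. All 10 were also among the 16637 genes kept after the dimmest were left out. Where a gene had several probe sets, it was represented by the one chosen by the highest mean over the 7 arrays, a measured value that does not use the labels. Among the 10 phosphatase genes this choice mattered for Dusp6 only. RNA came from endothelial cells of fetal mouse lung at E18.5, just before birth. The 3 samples labelled wild-type and the 4 labelled Sash1-knockout (Sash1-/-) were from littermates on a C57BL/6 background, and all had been sorted as live CD31-positive cells without CD45 or CD326. Amplified RNA was hybridised to 1 single-colour Affymetrix array a sample. The labels do not state which cells lost Sash1 beyond the genotype, or that each sample was a separate embryo, so p-values measure the spread between samples, which may be technical. Arrays are named by label and replicate number, WT1 to WT3 for the wild-type label and KO1 to KO4 for the Sash1-knockout label.

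Dual-specificity phosphatases remove phosphate from both the threonine and the tyrosine of the activation loop of a MAP kinase, and so switch off ERK, p38 or JNK. Most are themselves transcribed in response to MAP kinase activity or stress, which makes them feedback inhibitors. In endothelium MAP kinases relay VEGF, flow and inflammatory signals. DUSP1, DUSP2, DUSP4 and DUSP5 are nuclear and inducible, DUSP6 and DUSP7 are cytoplasmic and act on ERK, and DUSP8, DUSP10 and DUSP16 prefer JNK and p38. DUSP14 is a small atypical member without the kinase-docking domain.

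Upstream sequence was available for 9 of the 10 genes, from RefSeq on build GRCm38.p6, and not for Dusp4. The stretches printed are the 250 bases before the annotated start of Dusp1 (chr17:26508473-26508722, minus strand), Dusp5 (chr19:53528895-53529144, plus strand), Dusp8 (chr7:142095285-142095534, minus strand), Dusp16 (chr6:134792629-134792878, minus strand) and Dusp6 (chr10:99262981-99263230, plus strand), each read 5′ to 3′ on the gene's own strand. Dusp1, Dusp5 and Dusp8 are shown because their signals varied most between arrays, Dusp16 because it had the smallest unadjusted p, and Dusp6 because its signal varied least. Capitals mark the core of the cAMP response element (TGACG, either strand) and the CArG box, the site of serum response factor. No AP-1 site (TGANTCA) was found in any of the 9 stretches.
Dusp1: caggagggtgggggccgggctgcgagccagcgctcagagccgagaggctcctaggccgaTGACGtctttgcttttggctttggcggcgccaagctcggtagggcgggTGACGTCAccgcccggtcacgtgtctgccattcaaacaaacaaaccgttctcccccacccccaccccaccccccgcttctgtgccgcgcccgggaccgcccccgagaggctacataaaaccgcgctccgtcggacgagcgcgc
Dusp5: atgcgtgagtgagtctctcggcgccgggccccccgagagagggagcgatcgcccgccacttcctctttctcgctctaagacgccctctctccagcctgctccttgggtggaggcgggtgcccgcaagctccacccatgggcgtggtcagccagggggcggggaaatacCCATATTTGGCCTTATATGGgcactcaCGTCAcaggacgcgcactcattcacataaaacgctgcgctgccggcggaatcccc
Dusp8: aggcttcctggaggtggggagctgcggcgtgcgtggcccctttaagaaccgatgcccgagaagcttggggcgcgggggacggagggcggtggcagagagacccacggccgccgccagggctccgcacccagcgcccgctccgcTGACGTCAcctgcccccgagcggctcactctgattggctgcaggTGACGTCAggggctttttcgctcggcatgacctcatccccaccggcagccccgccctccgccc
Dusp16: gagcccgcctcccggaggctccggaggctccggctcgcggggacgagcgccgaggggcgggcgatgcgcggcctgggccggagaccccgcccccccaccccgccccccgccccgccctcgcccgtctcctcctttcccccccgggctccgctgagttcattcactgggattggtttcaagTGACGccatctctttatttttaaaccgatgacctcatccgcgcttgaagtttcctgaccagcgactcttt
Dusp6: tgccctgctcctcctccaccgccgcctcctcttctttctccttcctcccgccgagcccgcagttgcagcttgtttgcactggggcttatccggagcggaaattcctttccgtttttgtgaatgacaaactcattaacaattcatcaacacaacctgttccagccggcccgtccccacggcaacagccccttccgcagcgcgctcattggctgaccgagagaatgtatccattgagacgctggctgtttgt

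Dusp1 held the full element TGACGTCA once, starting 143 bases upstream, and another core match 191 bases upstream. Dusp8 held the full element at 107 and at 63 bases upstream. Each full element counts as overlapping core matches on the opposite strands. Dusp5 held CArG boxes next to each other at 82 and 72 bases upstream and a core match at 55, and Dusp16 held a core match at 70. Of 32851 upstream stretches of the same length, 17.8% held the core, 1.55% the full element, 1.47% a CArG box and 6.75% an AP-1 site. Among the 9 phosphatase stretches the counts were 4, 2, 1 and 0. The GC box (GGGCGG) was in 7 of the 9 and in 32.7% of all, the ETS letters (CCGGAA) were in 1 and in 12% of all, and the TATA box (TATAAA) was in 0 and in 12.4% of all. The phosphatase stretches were 56.4% to 77.2% G or C, against a median of 52.4%. A match describes letters and not a bound site.

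Some facts of the series touch every result. Sash1 itself measured 9.02, 8.73 and 8.33 on WT1, WT2 and WT3, and 8.29, 8.21, 8.68 and 8.13 on KO1, KO2, KO3 and KO4. For Sash1 the knockout-labelled mean was 77.6% of the wild-type-labelled one, a log2 difference of -0.37 (confidence interval -0.83 to 0.10, limma adjusted p 0.971). WT3 lay just above KO1, KO2 and KO4 and below KO3, and KO3 lay near WT2, against the order of the labels. This signal did not separate the labels, so it cannot show whether any array carries the wrong one. A probe set outside the removed part would check nothing. Groups are named by their labels for this reason, and results are also given without both arrays. The endothelial genes Pecam1 (11.03 to 11.21) and Cdh5 (11.83 to 11.97) were even over all 7 arrays. Other endothelial markers varied more, with a median span of 0.51 over the 12 listed and a range of 9.54 to 10.37 for Kdr. Ptprc, which encodes CD45, measured 3.51 to 4.85, and Epcam, which encodes CD326, 4.06 to 5.31, with KO4 lowest for both. Other markers of these cells were brighter or varied more. Of the lung epithelial markers, Sftpc was 10.20 or higher and Ager 9.15 or higher on every array. Sftpb ranged from 6.13 to 10.01 and Lamp3 from 2.97 to 8.37. The leukocyte marker Lyz2 ranged from 7.22 to 10.15, while others were dim, such as Itgam (3.10 to 3.44). The low signals of Ptprc and Epcam thus do not show that RNA of such cells was absent. In such bulk samples, fewer cells of a type and less RNA per cell cannot be told apart.

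None of the 10 phosphatase genes was called different between the labels by limma at an adjusted p under 0.05 (called share of all genes 0%). In 7 of 10 the mean was lower on the KO arrays, in Dusp7 and Dusp14 it was higher, and for Dusp6 it was the same to 2 decimals. Over all genes, 44.2% were lower by at least 0.01. The median difference of the 10 genes was -0.36 on the log2 scale, beside 0.02 for all genes tested. At an unadjusted p under 0.05 there was 1 of 10, Dusp16, beside 3.34% of all genes. In 0 of 10 were the labels free of overlap, beside 2.45% of all genes. Because these genes were picked with earlier results in view, the counts describe them and support nothing further.

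**Figure D1:**
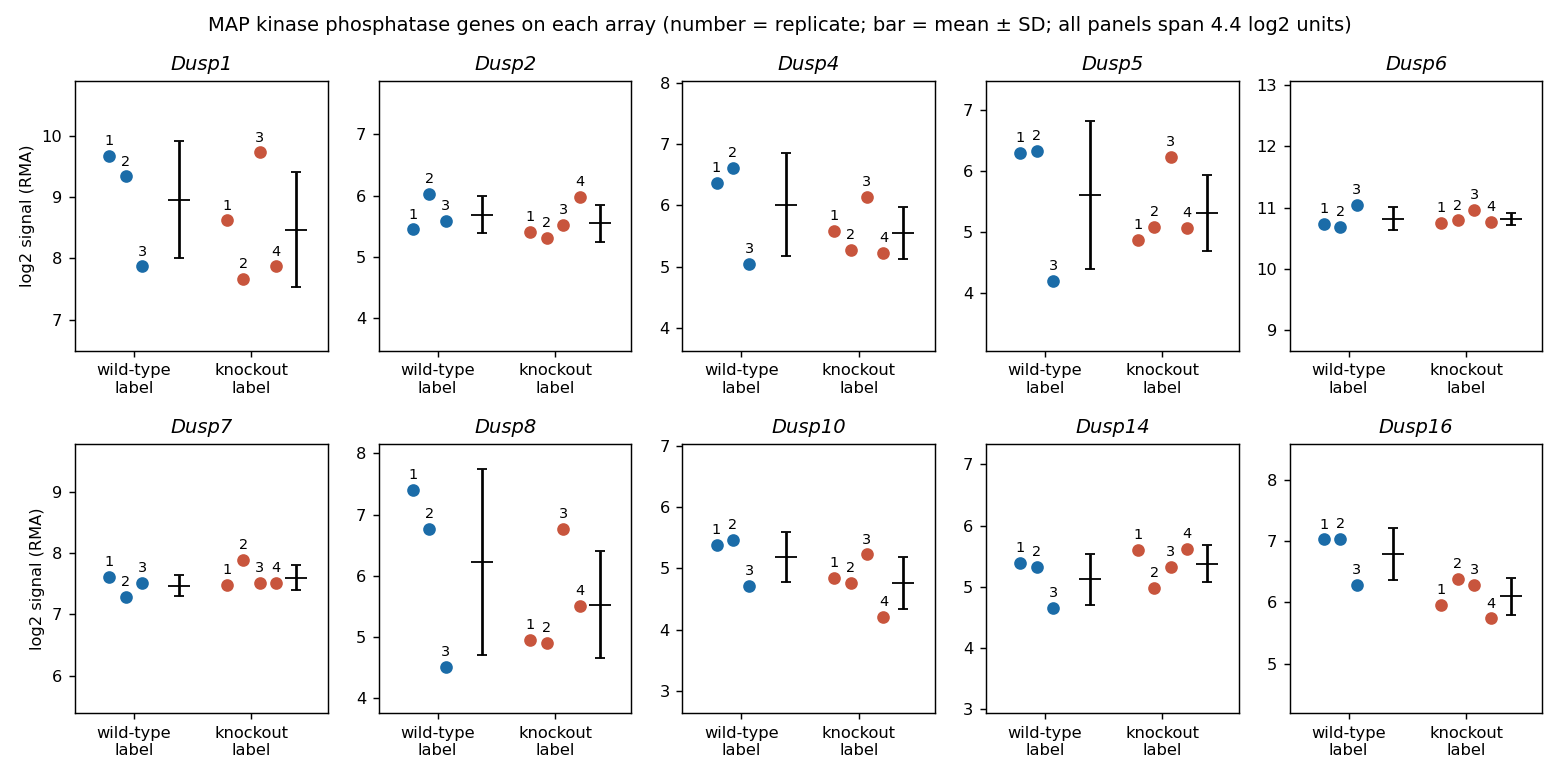
Log2 signal of the 10 phosphatase genes on each array, in panels of equal height, with points numbered by replicate, blue for the wild-type label (n = 3) and red for the knockout label (n = 4), and bars for mean ± SD. In Dusp1, Dusp4, Dusp5, Dusp8 and Dusp10, points 1 and 2 of the wild-type label and point 3 of the knockout label lie above the other 4.

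Among the nuclear, inducible members, Dusp1 encodes MKP-1, which dephosphorylates p38 and JNK as well as ERK and is an immediate early gene. Its log2 signal was 9.67, 9.34 and 7.87 on WT1, WT2 and WT3, and 8.62, 7.66, 9.73 and 7.87 on KO1, KO2, KO3 and KO4. The highest value of all 7 was thus on a knockout-labelled array, and the labels overlapped over nearly the whole range. The difference was -0.49 (SE 0.61, 95% confidence interval -1.91 to 0.93), which did not pass (limma adjusted p 0.972).

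Dusp4, which encodes the ERK and JNK phosphatase MKP-2, measured 6.37, 6.61 and 5.05 on the WT arrays and 5.58, 5.27, 6.14 and 5.22 on the KO arrays. The lowest value was on WT3. The difference was -0.46 (SE 0.40, interval -1.41 to 0.49; limma adjusted p 0.971). Dusp5, a nuclear phosphatase for ERK that is induced by it, measured 6.29, 6.32 and 4.21 against 4.87, 5.08, 6.23 and 5.07. Again WT3 was lowest, and KO3 stood with WT1 and WT2, so that the wild-type label held both the highest and the lowest value. The difference was -0.29 (SE 0.58, interval -1.66 to 1.07; limma adjusted p 0.982), and its sign turned without WT1 (0.05) or WT2 (0.06).

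Dusp2, known best from activated lymphocytes, measured 5.45, 6.03 and 5.59 on the WT arrays and 5.41, 5.31, 5.52 and 5.98 on the KO arrays. It did not share the order of arrays seen in Dusp1, Dusp4 and Dusp5, since WT2 and KO4 were highest. The difference was -0.13 (SE 0.20, interval -0.61 to 0.34; limma adjusted p 0.974), and its sign turned without WT2 (0.03).

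The cytoplasmic ERK phosphatases Dusp6 and Dusp7 had the smallest spans between arrays of the 10 members. Dusp6, which encodes MKP-3, a standard readout of ERK activity, measured 10.73, 10.69 and 11.04 on the WT arrays and 10.75, 10.79, 10.96 and 10.77 on the KO arrays. Its 7 values spanned 0.35, and the labels lay on top of each other, with a difference of 0.00 (SE 0.11, interval -0.27 to 0.27; limma adjusted p 1). A change beyond 120% or under 82.9% of the wild-type-labelled level lies outside that interval. The other probe set of Dusp6 measured 10.54, 10.37 and 10.71 against 10.64, 10.69, 10.62 and 10.75, and put KO4 highest where the first had put WT3 highest. With both averaged, the difference was 0.07. Dusp7, a close relative of Dusp6, measured 7.61, 7.28 and 7.51 against 7.48, 7.89, 7.51 and 7.51. The difference was 0.13 (SE 0.14, interval -0.19 to 0.45; limma adjusted p 0.971), and it was 0.03 without KO2 and 0.04 without WT2.

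Of the JNK and p38 phosphatases, Dusp16, which encodes MKP-7, came closest to a separation by label. It measured 7.03, 7.04 and 6.29 on the WT arrays and 5.96, 6.39, 6.29 and 5.74 on the KO arrays. The arrays WT1 and WT2 were above all others, while WT3 lay level with KO3 and below KO2. The knockout-labelled mean was 61.9% of the wild-type-labelled one (95% confidence interval 42% to 91.3%), a log2 difference of -0.69 (SE 0.24, interval -1.25 to -0.13). The unadjusted p was 0.0222, and the adjusted p of 0.971 in limma did not pass. In limma fits that left out 1 array, the unadjusted p was 0.084 without WT1, 0.0852 without WT2, 0.0566 without KO1 and 0.056 without KO4.

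Dusp8, best known from brain and heart, had the widest range of the 10 genes. It measured 7.40, 6.77 and 4.51 on the WT arrays and 4.95, 4.90, 6.77 and 5.51 on the KO arrays. The wild-type-labelled values alone spanned 2.89, from the highest to the lowest of all 7. The difference was -0.69 (SE 0.75, interval -2.46 to 1.07; limma adjusted p 0.971), equal in size to that of Dusp16 but with an interval that held 0. Dusp10, which encodes MKP-5, measured 5.39, 5.46 and 4.72 against 4.84, 4.76, 5.23 and 4.21. Its labels overlapped from 4.72 to 5.23, and the difference was -0.43 (SE 0.27, interval -1.07 to 0.21; limma adjusted p 0.971).

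The atypical member Dusp14 measured 5.39, 5.32 and 4.65 on the WT arrays and 5.60, 4.98, 5.32 and 5.62 on the KO arrays. WT3 was lowest and KO1 and KO4 were highest. The difference was 0.26 (SE 0.23, interval -0.29 to 0.81; limma adjusted p 0.971), and only 0.02 without WT3.

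**Figure D2:**
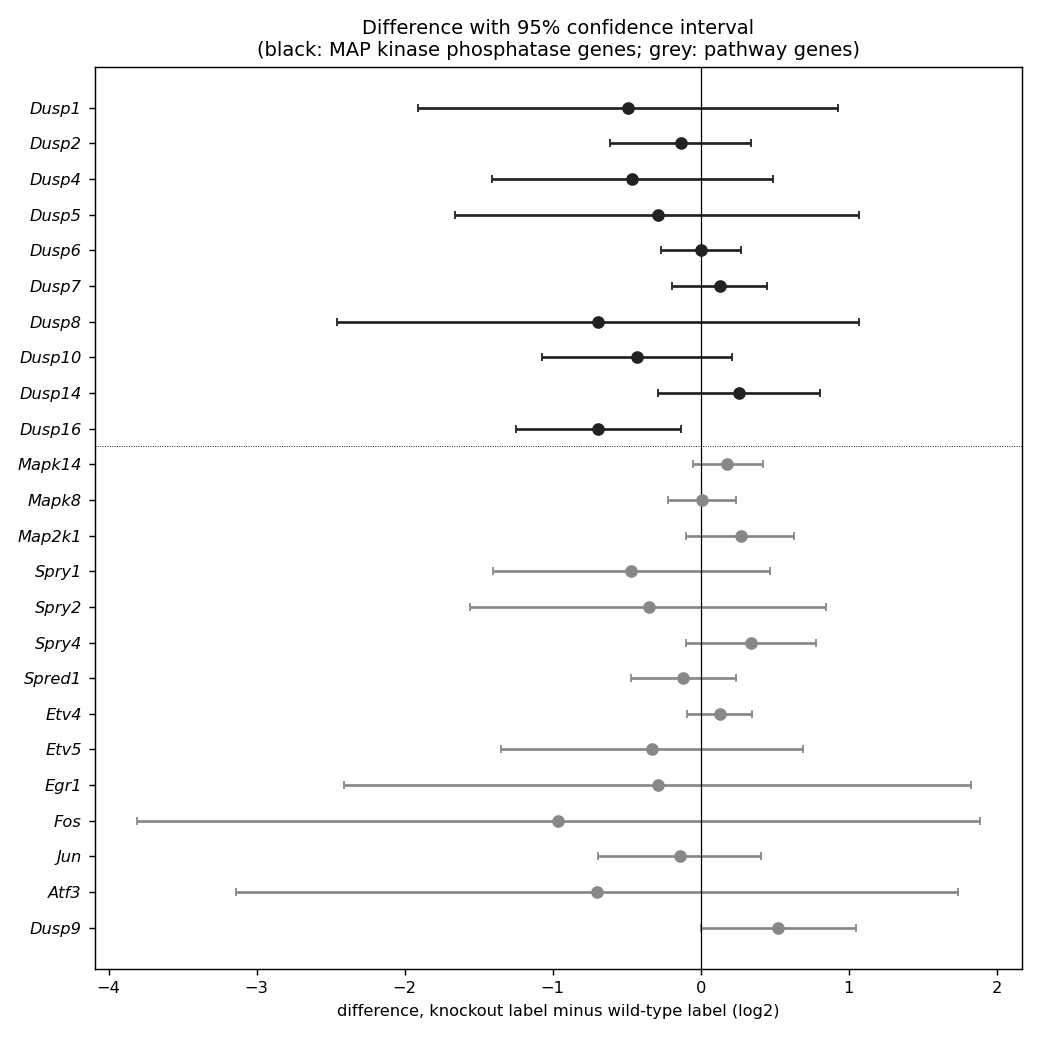
Difference between the knockout-labelled and wild-type-labelled means (log2, x axis) with its 95% confidence interval for the 10 phosphatase genes (black) and 14 pathway genes (grey). Dusp16 is the only one of the 10 whose interval lies below 0 (-1.25 to -0.13), and Dusp6 has the narrowest of the 10 (-0.27 to 0.27).

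The members differed in how far they varied between arrays. The span, from the lowest to the highest of the 7 arrays, was 2.89 log2 units for Dusp8, 2.11 for Dusp5, 2.07 for Dusp1, 1.56 for Dusp4, 1.30 for Dusp16 and 1.25 for Dusp10. These stood at percentiles 99.6, 98.8, 98.7, 96.3, 93.2 and 92.1 of the genes tested, whose median span was 0.60. Dusp14 spanned 0.97, Dusp2 0.72, Dusp7 0.61 and Dusp6 0.35, or percentiles 82.2, 63.8, 51 and 17.9. The span carries no label, and within the wild-type label alone Dusp1, Dusp4, Dusp5 and Dusp8 already differed by 1.80, 1.56, 2.11 and 2.89.

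**Figure D3:**
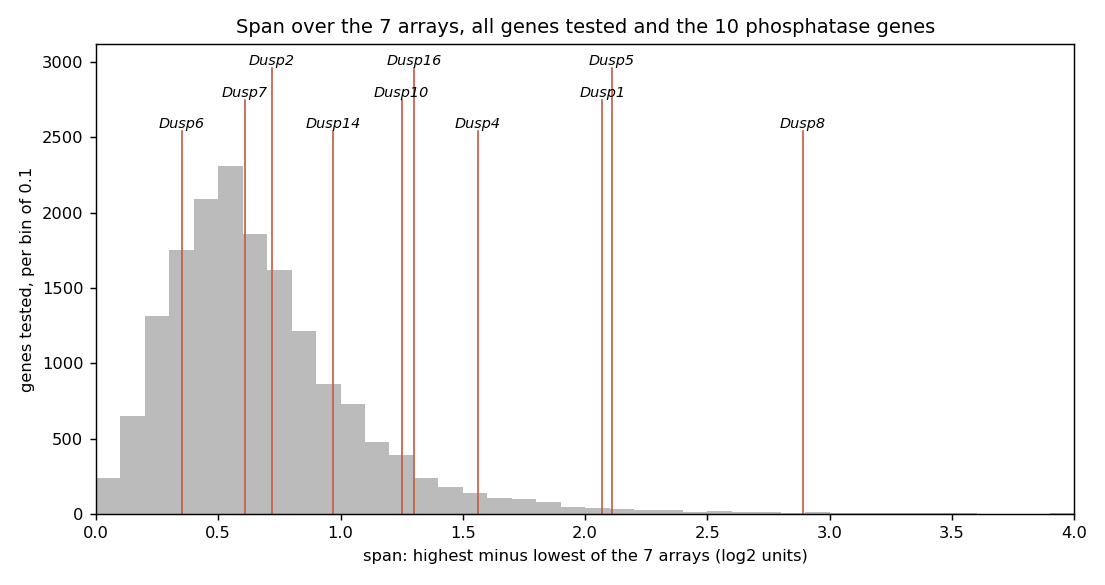
Histogram of the span over the 7 arrays (log2 units) for the 16637 genes tested, in bins of 0.1, up to a span of 4, with red lines at the 10 phosphatase genes. Dusp8, Dusp5 and Dusp1 lie in the far right tail and Dusp6 left of the peak.

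The same arrays were high in Dusp1, Dusp4, Dusp5, Dusp8 and Dusp10. In these 5 of 10 genes the arrays WT1, WT2 and KO3 were the highest 3 of 7, an observation made after the values were seen and given without a test. Over all genes tested these arrays were the highest 3 in 965, or 5.8%, and the lowest 3 in 1026, or 6.17%. The gap between the lowest of these 3 arrays and the highest of the other 4 was 1.26 log2 units for Dusp8, 1.15 for Dusp5, 0.72 for Dusp1, 0.56 for Dusp4 and 0.39 for Dusp10. Sash1 had the same 3 arrays on top, with a gap of 0.35. Dusp16 shared the high values of WT1 and WT2 but not that of KO3, at 6.29.

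Many immediate early genes, which are switched on by the same signals as Dusp1, had the same arrays on top. Of the 20 immediate early and dissociation stress genes tested, 14 had those 3 arrays on top, 17 had lower and 3 higher means on the KO arrays, and 0 were called. The list averaged 8.40, 8.27 and 7.11 on the WT arrays and 7.97, 7.05, 8.60 and 6.59 on the KO arrays. Fos, which encodes an AP-1 subunit, measured 8.80, 8.62 and 5.86 against 7.72, 6.00, 9.10 and 4.39, a difference of -0.96 (95% confidence interval -3.81 to 1.89). Atf3, a stress-induced transcription factor, measured 9.04, 8.96 and 6.58 against 8.66, 6.22, 9.32 and 5.77, and differed by -0.70 (-3.14 to 1.74). Both were highest on KO3 and lowest on KO4. Jun, the AP-1 partner of Fos, spanned 0.82 and differed by -0.14 (-0.69 to 0.41), which became 0.01 without WT1. The median difference of the list was -0.40. Whether handling of the tissue, which is known to induce such genes, had a part in the values of the phosphatases was not tested.

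Genes that ERK induces differed in both directions. Of 15 tested feedback and target genes, 8 had lower and 6 had higher means on the KO arrays, 0 were called, and the median difference was -0.12. Spry1, an inhibitor of receptor tyrosine kinase signalling, measured 7.29, 7.80 and 6.06 against 6.48, 6.39, 7.04 and 6.42, and its relative Spry2 measured 7.44, 7.34 and 5.92 against 6.45, 6.28, 7.61 and 5.84. Both had the arrays WT1, WT2 and KO3 on top, and differed by -0.47 (-1.40 to 0.47) and -0.35 (-1.56 to 0.85). Egr1, an immediate early transcription factor, ranged from 6.06 to 9.40 with the same 3 arrays on top and differed by -0.29 (-2.41 to 1.83), a sign that turned without WT1 (0.19), KO4 (0.16) or KO2 (0.03). Spry4 instead measured 8.67, 8.53 and 9.05 against 8.86, 9.25, 8.86 and 9.40, with WT1 and WT2 among its lowest, and differed by 0.34 (-0.10 to 0.78). Spred1, another inhibitor of this cascade, differed by -0.12 (-0.47 to 0.24). Etv4 and Etv5, ETS factors induced by FGF and ERK, differed by 0.13 (-0.09 to 0.35) and -0.33 (-1.35 to 0.69). Etv5 was 6.16 on KO4 and 7.34 or higher on all others, and differed by 0.06 without KO4. It had 2 probe sets, and with both averaged the difference was -0.08. The values of Dusp6, Spry4, Spred1 and Etv4 thus spanned 0.35 to 0.87 where those of Spry1, Spry2, Etv5 and Egr1 spanned 1.74 to 3.34. Etv4 measured only 3.83 to 4.21, near the array medians of 3.86 to 4.03. At so low a level its narrow span does not show a steady gene.

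**Figure D4:**
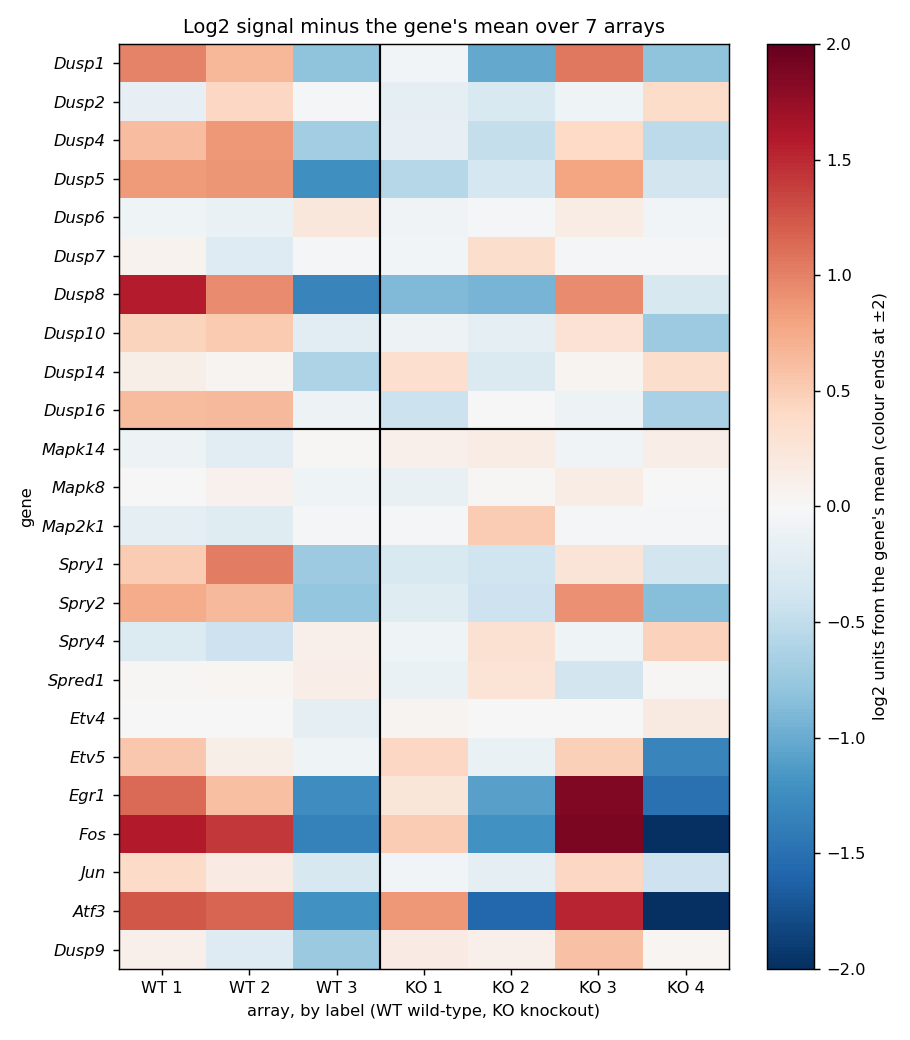
Log2 signal of the 10 phosphatase genes (above the line) and 14 pathway genes (below it) on each array, minus the gene's own mean over the 7 arrays, with colours ending at 2 log2 units to either side. The columns of WT1, WT2 and KO3 are red for Dusp1, Dusp4, Dusp5, Dusp8 and Dusp10 and for Spry1, Spry2, Egr1, Fos, Jun and Atf3, while Dusp6 and Dusp7 stay pale.

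The kinases that these phosphatases act on had a median span of 0.45 over the arrays. Of 11 MAP kinase genes tested 8 had higher and 3 lower means on the KO arrays, 0 were called, and the median difference was 0.02. The p38 gene Mapk14 ranged from 6.27 to 6.65 and differed by 0.18 (95% confidence interval -0.05 to 0.42), and the JNK gene Mapk8 ranged from 7.21 to 7.50 and differed by 0.01 (-0.22 to 0.24). Others, named after their values were seen, varied more, with spans of 1.09 for Mapk4, 1.05 for Mapk13, 1.03 for Mapk11 and 1.02 for Mapk6. Mapk11, another p38 gene, differed by 0.47 (0.00 to 0.94). It was the 1 of 11 at an unadjusted p under 0.05 (0.0499 in limma), beside 3.34% of all genes. WT1, WT2 and KO3 were the highest 3 in 1 of 11, Mapk6, beside 5.8% of all genes. Of 6 upstream kinase genes 3 were higher and 3 lower, with 0 called and a median of 0.01, and Map2k1, which encodes the ERK kinase MEK1, differed by 0.27 (-0.10 to 0.63). That value was 0.14 without KO2. RAS, RAF and further upstream kinase genes were higher in 9 and lower in 10 of 19, with 0 called and a median of -0.04. Other ERK and p38 phosphatases were lower in 7 and higher in 2 of 9, with 0 called and a median of -0.05.

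The other dual-specificity phosphatase genes were counted in the same way. Of 22 tested, 14 had higher and 6 lower means on the KO arrays, 0 were called, the median difference was 0.07, and the arrays WT1, WT2 and KO3 were the highest 3 in 0. Dusp9, the remaining cytoplasmic ERK phosphatase, measured 4.00, 3.63 and 3.15 against 4.06, 4.00, 4.48 and 3.93, a difference of 0.52 (95% confidence interval 0.00 to 1.05; limma adjusted p 0.971). That difference became 0.30 without WT3. Like Etv4, Dusp9 lay near the array medians of 3.86 to 4.03, so little can be read from its values. Of these 22 genes 1 had no overlap between labels, beside 2.45% of all genes tested. That gene was Dusp23, a small phosphatase named here after its values were seen. Dusp23 measured 6.38, 6.38 and 6.69 against 6.90, 7.48, 7.11 and 6.80. It differed by 0.59 (0.17 to 1.01), with an unadjusted p of 0.0128 and an adjusted p of 0.971 in limma.

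For each of the 6 members with a span of at least 1, the genes with the most similar values over the 7 arrays were found among 14560 named genes. Likeness was the mean absolute distance between the profiles, each taken from its own mean, in log2 units. Nearest to Dusp1 were Sik1, a salt-inducible kinase gene (0.09), the transcription factor gene Klf6 (0.16) and the orphan nuclear receptor gene Nr4a1 (0.18). Nearest to Dusp4 were the small GTPase gene Rhob (0.09), the insulin receptor substrate gene Irs2 (0.10) and the kinase gene Map3k6 (0.11). Sik1 was 9.55 on WT1 and 7.76 on WT3, where Dusp1 was 9.67 and 7.87. Klf6, Nr4a1 and Rhob are on the immediate early and dissociation stress list. Nearest to Dusp5 were the lamin gene Lmna (0.11), the pyruvate dehydrogenase kinase gene Pdk4 (0.18) and the BMP target Id1 (0.19). Nearest to Dusp8 were Tinagl1 (0.13), the plasminogen activator gene Plat (0.21) and Retnlg (0.26). Dusp10 lay nearest to Mapk6, which encodes the atypical MAP kinase ERK3 (0.08), Emb (0.08) and Ces1d (0.09). Dusp16 lay nearest to the vitamin C transporter gene Slc23a2 (0.09), the p53-induced gene Trp53inp1 (0.10) and the amino acid transporter gene Slc38a2 (0.10). None of these nearest genes was a member. Among the 6 members the closest pair, Dusp10 and Dusp16, lay 0.20 apart.

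Leaving out single arrays changed the size of these differences. Without WT3, Dusp8 differed by -1.55, Dusp1 by -1.03, Dusp5 by -0.99, Dusp4 and Dusp16 by -0.94, and Dusp10 by -0.67. The unadjusted p was under 0.05 for 5 of 10 genes in that fit, and for 6 of 10 without both WT3 and KO3, but 0 were called in either. It was under 0.05 for 1 of 10 without KO2 or KO3, and for 0 of 10 without WT1, WT2, KO1 or KO4. With WT3 and KO3 both left out, the differences were -1.97 for Dusp8, -1.46 for Dusp1, -1.30 for Dusp5, -1.13 for Dusp4, -1.0 for Dusp16 and -0.82 for Dusp10. The other members differed by -0.17 (Dusp2), 0.05 (Dusp14), 0.06 (Dusp6) and 0.18 (Dusp7). Both arrays were left out for their measured Sash1 values and also lay against their labels in Dusp1, Dusp4, Dusp5, Dusp8 and Dusp10. The fit without both thus describes the remaining 5 arrays and gives no independent support. Over all 16637 genes tested, the fits without WT3 and without both gave 1314 and 1779 at an unadjusted p under 0.05, against 556 with all arrays. The fits without WT1, WT2, KO1, KO2, KO3 and KO4 gave 458, 295, 466, 554, 658 and 394. Without WT1 the difference was -0.11 for Dusp8 and -0.14 for Dusp1, and without WT2 it was -0.16 for Dusp4. KO2 also mattered for Dusp1 (-0.22 without it) and KO3 for Dusp5 and Dusp8 (-0.60 and -1.11). The median over the 10 genes was -0.12 without WT1, -0.11 without WT2, -0.80 without WT3, -0.22 without KO2 and -0.59 without KO3. Dusp16 ranged from -0.94 to -0.57 when each array was left out.

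**Figure D5:**
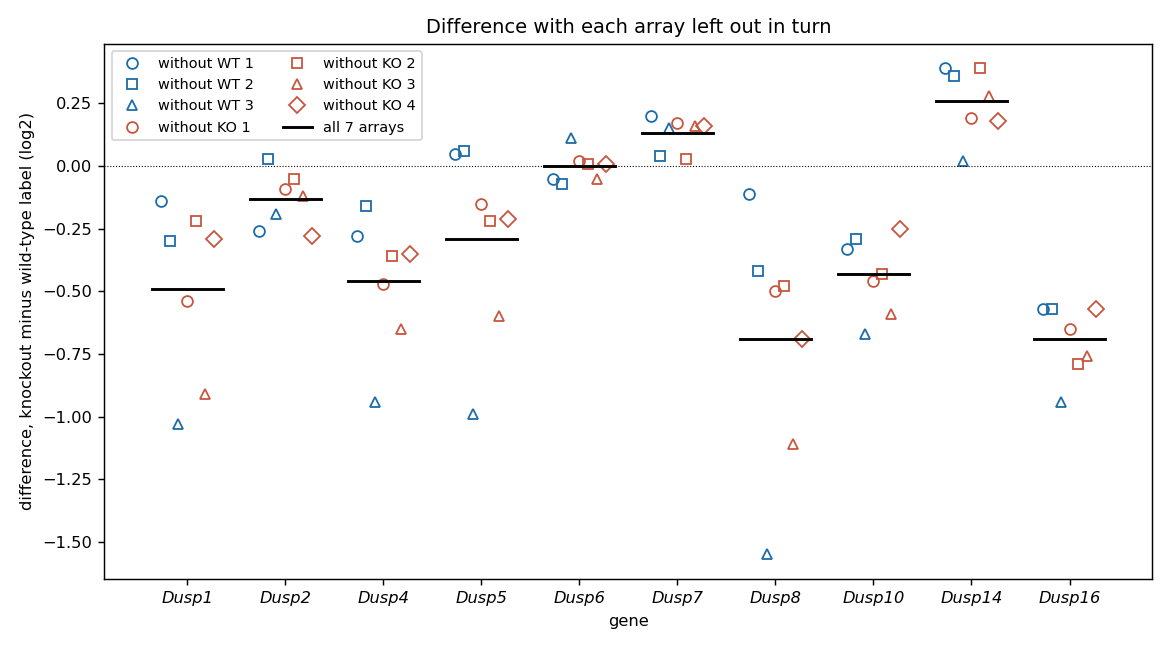
Difference between labels (log2) for the 10 phosphatase genes with all 7 arrays (black line) and with each array left out in turn (blue for wild-type-labelled, red for knockout-labelled, shape by replicate). Blue triangles, without WT3, reach -1.55 for Dusp8, while Dusp6 stays between -0.07 and 0.11.

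Markers of other cells also differed between arrays. The 16 leukocyte markers averaged 4.97 to 5.42 on the WT arrays and 4.47 to 5.29 on the KO arrays, with 14 of 16 lower in the mean, and 5 had WT1, WT2 and KO3 on top. The 6 platelet markers averaged 4.79 to 5.60 and 4.44 to 5.50, with 6 of 6 lower and 3 with those arrays on top. The 15 lung epithelial markers averaged 7.20 to 8.27 and 6.54 to 8.09, with 11 of 15 lower and 2 with those arrays on top. The 12 fibroblast and mural markers averaged 6.82 to 7.25 and 6.74 to 7.52, with 10 higher and 2 lower. The 5 mesothelial markers averaged 5.15 to 6.11 and 5.27 to 5.59, with 3 higher and 2 lower. The 8 cardiac muscle markers averaged 5.59 to 6.34 and 5.40 to 5.59, with 2 higher and 6 lower. The 2 erythroid markers tested averaged 4.25 to 4.64 and 4.46 to 4.79, with 2 higher and 0 lower. The 12 endothelial markers averaged 9.94 to 9.99 and 9.84 to 10.09, with 3 higher and 7 lower. In each of these lists 0 genes were called. An array has no true zero, so none of these markers can be called absent, and their part in the phosphatase values was not tested.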

How the data were processed

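The authors deposited log2 values made with RMA in Affymetrix Expression Console 1.1, per the submitters' processing notes. No source states the scale, and log2 was inferred from the values. Array medians over 41345 probe sets were 3.86 to 4.03. Arrays have no read depth, and precision depends on how many there are. Gene names came from GEO's platform annotation and were updated through RefSeq (GRCm38.p6, 99.2% of identifiers found). Of the probe sets, 23521 had 1 symbol, 1814 several and 16010 none listed. The dimmest 25% of genes (below 2.98) were left out. limma 3.58.1 (lmFit, eBayes) in R 4.3.3 was fitted on all genes with genotype as the only term, two-sided, with Benjamini-Hochberg adjustment, and was tested on simulated data. The array's genome build is not given in the sources used here.

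The members and lists were chosen with earlier results of these data known. Named pathway genes were set by role, and Dusp23, Mapk4, Mapk6, Mapk11 and Mapk13 were added later. Alternatives were other filters on dim genes, quantile normalization, median centring, robust moderation with a trend on intensity, weighted arrays, averaged probe sets, the replicate number as a block, and each array left out. Leaving out both WT3 and KO3 was chosen after the data had been seen.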

Additional observations from a re-analysis of the deposited data

Results flagged for a closer look

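Among 25 genes examined over the 4 knockout-labelled arrays, 4 had an array that stood apart, which was KO2 or KO3 each time. Chance gives about 1 in 20 for independent values. Genes on the same arrays are not independent, so no excess over chance can be read from this count. Dusp5 was at 6.23 on KO3 and at 4.87 to 5.08 on the other 3. Dusp7 was at 7.89 on KO2 and at 7.48 to 7.51 on the others. Map2k1 was at 6.67 on KO2 and at 6.15 on each of the others. Spry1 was at 7.04 on KO3 and at 6.39 to 6.48 on the others. Groups of 3 arrays were too small for this comparison.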

How the results depend on the processing

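In all 16 alternatives 0 phosphatase genes and 0 of all genes were called by limma. Dusp6, at 0.00 with all arrays, lay on both sides of 0, from -0.07 without WT2 to 0.11 without WT3, and at 0.06 with median centring. Of 144 values of the other 9 genes under the alternatives, 3 turned sign, all on leaving out 1 array. Leaving out each array in turn gave a median difference of the 10 genes from -0.80 to -0.11, and without WT3 and KO3 it was -0.91; the cause was not tested. The ranges on leaving out 1 array were -0.28 to 0.03 for Dusp2, -0.99 to 0.06 for Dusp5, -0.04 to 0.06 for Mapk8, -0.54 to 0.06 for Etv5, -1.0 to 0.19 for Egr1 and -0.34 to 0.01 for Jun. Signs also turned for Mapk8 with array weights (-0.04) and, without WT3 and KO3, for Mapk8 (-0.08) and Spred1 (0.02). With the replicate number as a block, Etv5 was 0.06 and Egr1 0.16, the median of the 10 genes was -0.26, and 225 genes had an unadjusted p under 0.05, none of them a member. Same-numbered arrays deviated from their group means in opposite ways (correlations of -0.18, -0.20 and -0.55), and KO4 has no partner. Arrays with different numbers also shared deviations, such as WT1 and KO3 (0.49). These correlations therefore cannot decide whether the numbers pair the arrays. The count at an unadjusted p under 0.05 was 556 in the main comparison, 1310 with array weights, 295 without WT2, 1314 without WT3 and 1779 without WT3 and KO3. The 95% confidence intervals of the 10 genes, not adjusted for the number of genes, reached 0.269 to 1.77 log2 units to either side. The adjusted test is stricter, as Dusp16 at -0.69 lay beyond its own interval's reach and was not called.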
